A study of Homo sapiens with 24 samples.

Results

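The vitamin D axis was followed through 4 genes, CYP24A1, VDR, CYP27B1 and RXRA, among the 60617 genes of the count table. They were chosen by symbol, with earlier results of these libraries known, so their changes are given as a description and carry no p-value. MDA686TU (686Tu), a cell line from squamous cell carcinoma of the head and neck, was grown in serum-containing medium and left untreated (control) or exposed for 24 h to 40 μM EGCG, 15 μM resveratrol or their combination at the same doses. EGCG is the main polyphenol of green tea and was dissolved in water, and resveratrol is a polyphenol of grapes that came from a stock in DMSO. The sources used here do not say whether cells without resveratrol received DMSO, so an effect of resveratrol and of this solvent cannot be told apart. Each of the 4 groups had 6 libraries of polyadenylated RNA, with between 7034872 and 11735574 counts per library. The labels number these libraries but do not say that they came from separate cultures, so the spread between them may be technical in part.

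Calcitriol, the active form of vitamin D, is made from its circulating precursor calcidiol by the mitochondrial P450 enzyme CYP27B1. It binds VDR, a nuclear receptor that acts on DNA together with a retinoid X receptor such as RXRA. CYP24A1, another mitochondrial P450, breaks down calcitriol and calcidiol, and its gene is the best known target of VDR. Keratinocytes of skin and oral mucosa hold both the activating enzyme and the receptor, and the pathway is known there for its part in growth and differentiation. The 4 genes were annotated on GRCh38 as follows. CYP24A1 (ENSG00000019186) lies on the minus strand of chromosome 20 from 54153446 to 54173986. VDR (ENSG00000111424, 47841537 to 47943048) and CYP27B1 (ENSG00000111012, 57762334 to 57768986) both lie on the minus strand of chromosome 12. RXRA (ENSG00000186350) lies on the plus strand of chromosome 9 from 134317098 to 134440585.

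The line expressed all 7 markers of squamous epithelium that were examined, and 3 of them, KRT5, KRT14 and KRT6A, had the highest levels of that list. Markers of leukocytes summed to at most 10.2 normalized counts in a library, and those of endothelium to at most 19.9. Among the 4 fibroblast markers, COL3A1, DCN and PDGFRB stayed at or below 2.27 normalized counts in each library, whereas COL1A1 averaged 1314. The share of mitochondrial transcripts was between 0.249% and 0.326% for replicates 1 to 3 of every group, and between 0.448% and 0.775% for replicates 4 to 6. The labels name no batch for this division, and fold changes from each set alone are given beside the results of the 4 genes where they moved most.

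In the control cells the receptors were more abundant than the enzymes when levels were compared per gene length. The mean FPKM was 14.8 ± 0.70 (SD, n = 6) for RXRA, 11.5 ± 0.42 for VDR, 8.91 ± 0.58 for CYP24A1 and 1.99 ± 0.20 for CYP27B1. The ranges of these FPKM values over the 6 libraries followed the same order, and CYP27B1 stood apart at the low end. RXRA lay above 74.8% of the 15476 tested genes in this measure, VDR above 69.8%, CYP24A1 above 63.9% and CYP27B1 above 29.9%. CYP27B1 therefore rested on few reads, between 33 and 94 per library over the 4 groups. Its gene shares 516 bases with METTL1, a tRNA methyltransferase gene on the same strand that had a mean of 384 counts, so reads from the shared stretch are of uncertain origin.

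CYP24A1, the catabolic enzyme, was lower with EGCG alone and near the control level with the combination. Its normalized count (raw count divided by a size factor per library) ranged from 274.6 through a median of 312.9 to 334.6 in the control libraries. With EGCG alone the lowest, median and highest values were 228.3, 236.5 and 270.1. All 6 EGCG libraries thus lay below all 6 control libraries, though the highest of them (replicate 6) came close to the lowest control (replicate 1). With resveratrol the values were 253.2, 286.0 and 293.3, which overlapped the control range at its low end. With the combination they were 286.8, 326.3 and 364.96, so that all 6 libraries lay above all 6 EGCG libraries and overlapped those of the control. Whether fewer cells carried the transcript or each cell carried less of it cannot be told apart in RNA from whole cultures.

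The mean of CYP24A1 in normalized counts was 310.2 ± 20.1 (SD, n = 6) for control cells, 242.2 ± 15.1 after EGCG, 278.8 ± 16.2 after resveratrol and 324.3 ± 30.8 after both. The fitted log2 fold change against control was -0.36 (SE 0.0605) for EGCG, -0.15 (SE 0.0586) for resveratrol and 0.07 (SE 0.0582) for both. EGCG given beside resveratrol went with a log2 fold change of 0.22 (95% CI 0.10 to 0.34) over resveratrol alone. The sum of the changes with the single agents was -0.51 on the log2 scale, and the combination was 0.58 above that sum (95% CI 0.41 to 0.75). This excess, the interaction of the agents, came to 0.51 from replicates 1 to 3 alone and to 0.65 from replicates 4 to 6 alone. The change with EGCG alone was -0.34 and -0.38 in these sets, and that with resveratrol -0.10 and -0.20.

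The smaller change of CYP24A1 with resveratrol depended on the scaling. Scaling by library size alone put it at -0.06 and that of the combination at 0.15, while the change with EGCG alone remained near its value at -0.35, as did the interaction at 0.57. Among the markers examined, COL1A1, a collagen gene, moved with EGCG in the same directions as CYP24A1. Its log2 fold change was -0.27 with EGCG (edgeR adjusted p = 0.00215), 0.19 for EGCG beside resveratrol (edgeR adjusted p = 0.0169) and 0.46 for the interaction (edgeR adjusted p = 0.000787). Against control COL1A1 was at 0.29 with resveratrol and 0.48 with the combination, where CYP24A1 was at -0.15 and 0.07. The 4 fibroblast markers summed to between 1084 and 1329 normalized counts in the control libraries, 876 to 1092 after EGCG, 1284 to 1532 after resveratrol and 1501 to 1720 after both. COL1A1 made up nearly this whole sum, and its part in the values of CYP24A1 was not tested.

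VDR, the receptor, was highest with the combination. Its normalized counts ran from 534.6 through a median of 569.5 to 594.8 in the control and from 546.1 through 558.1 to 605.3 with EGCG. They ran from 573.9 through 614.0 to 628.5 with resveratrol and from 642.6 through 668.9 to 713.6 with the combination. All 6 combination libraries lay above every library of the other 3 groups, and those 3 groups overlapped each other. The log2 fold change against control was 0.25 (95% CI 0.17 to 0.33) with the combination and 0.10 (95% CI 0.02 to 0.17) with resveratrol. With EGCG alone it was -0.01, with an interval from -0.08 to 0.07, so that a change of VDR beyond about these bounds was not seen with this agent. The combination was 0.15 above resveratrol (95% CI 0.08 to 0.23) and 0.16 above the sum of the single agents (95% CI 0.05 to 0.27). In replicates 1 to 3 and 4 to 6 the change with the combination was 0.19 and 0.31, and that with resveratrol 0.07 and 0.13. Library size scaling put VDR at 0.19 with resveratrol and 0.33 with the combination, and the call with resveratrol was lost without the filter on low counts (0.09).

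**Figure D1:**
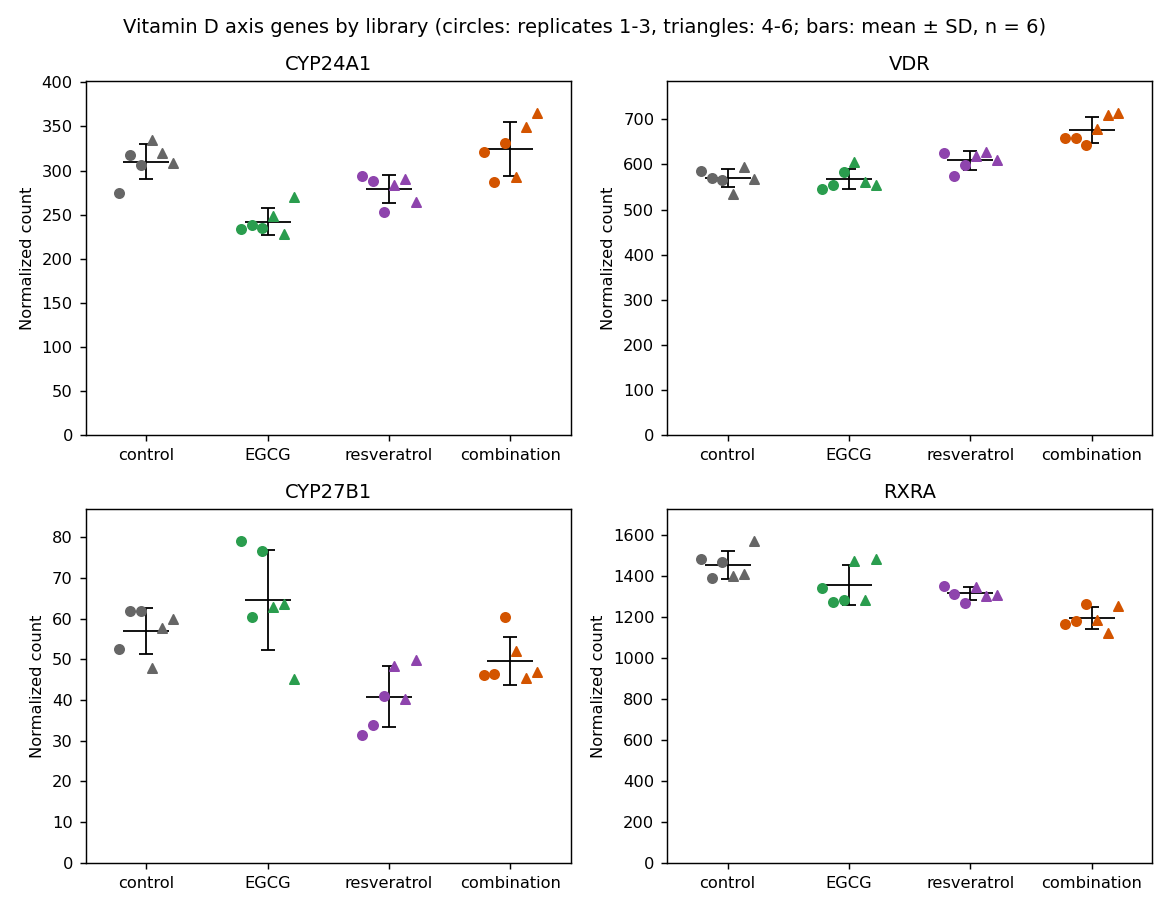
Normalized counts of CYP24A1, VDR, CYP27B1 and RXRA in each of the 24 libraries, by group, with circles for replicates 1 to 3, triangles for replicates 4 to 6 and bars for the mean ± SD (n = 6). The EGCG libraries of CYP24A1 lie below the control libraries, and the combination libraries lie above all others for VDR and below all others for RXRA.

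RXRA, the DNA-binding partner of VDR, was lowest with the combination. The control libraries held between 1387 and 1569 normalized counts with a median of 1437, and the EGCG libraries between 1269 and 1479 with a median of 1310.4. The resveratrol libraries held between 1268 and 1351 with a median of 1307, and the combination libraries between 1121 and 1262 with a median of 1183. The combination libraries lay below every library of the other groups, by a narrow margin for resveratrol and EGCG, and the resveratrol libraries lay below those of the control. The log2 fold change against control was -0.28 (95% CI -0.36 to -0.20) with the combination, -0.14 (95% CI -0.22 to -0.06) with resveratrol and -0.10 (95% CI -0.18 to -0.02) with EGCG. The combination was near the sum of the single agents, with an interaction of -0.03 and an interval from -0.15 to 0.08. From replicates 1 to 3 alone and 4 to 6 alone the change with EGCG came to -0.15 and -0.06, the combination against EGCG to -0.11 and -0.24, and the interaction to 0.03 and -0.09. With scaling by library size alone the change with resveratrol was -0.05 and that with the combination -0.20.

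VDR and RXRA thus moved in opposite directions with the combination, and their ratio within a library does not depend on how libraries are scaled. The ratio of the FPKM of VDR to that of RXRA was 0.777 ± 0.0417 (SD, n = 6) for control cells, 0.831 ± 0.0571 after EGCG, 0.916 ± 0.0299 after resveratrol and 1.12 ± 0.0781 after both. It lay between 1.01 and 1.25 in the combination libraries and did not exceed 0.954 in any other library. By these FPKM values VDR lay above RXRA only with the combination. In normalized counts, which are not divided by gene length, RXRA stayed above VDR there, at means of 1194 and 677. Where the ratio crosses 1 therefore depends on the gene lengths the authors used, while its change between groups does not.

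CYP27B1, the activating enzyme, was lower with resveratrol. Its normalized counts ranged from 47.9 through 58.8 to 61.96 in the control and from 45.2 through 63.3 to 79.1 with EGCG. They ranged from 31.5 through 40.6 to 49.9 with resveratrol and from 45.3 through 46.6 to 60.5 with the combination. The groups overlapped in every comparison, and the EGCG libraries spread the most, with a coefficient of variation of 19.0%. The log2 fold change against control was -0.49 (95% CI -0.75 to -0.23) with resveratrol, 0.20 (95% CI -0.03 to 0.44) with EGCG and -0.19 (95% CI -0.44 to 0.06) with the combination. The change with resveratrol differed between the sets of replicates, at -0.72 for replicates 1 to 3 against -0.26 for 4 to 6, and that with EGCG was 0.31 and 0.07. METTL1, with which CYP27B1 shares bases, had a log2 fold change of -0.04 with resveratrol (edgeR adjusted p = 0.470). With the combination METTL1 was called lower, at -0.12. The part of shared reads in the values of CYP27B1 was not tested.

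The ratio of the FPKM of the catabolic enzyme CYP24A1 to that of CYP27B1 was 4.53 ± 0.618 (SD, n = 6) for control cells, 3.22 ± 0.901 after EGCG, 5.81 ± 1.31 after resveratrol and 5.45 ± 0.833 after both. The ranges of all 4 groups overlapped, from 2.44 to 4.92 with EGCG and from 4.36 to 7.66 with resveratrol. The EGCG libraries overlapped the other groups through replicate 6 alone (4.92). Every other EGCG library was at or below 3.25, under the lowest value of any other group (4.08, control replicate 3). The mean was lowest with EGCG, where CYP24A1 was low and CYP27B1 was not. With resveratrol CYP27B1 was the lower of the enzymes relative to control.

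**Figure D2:**
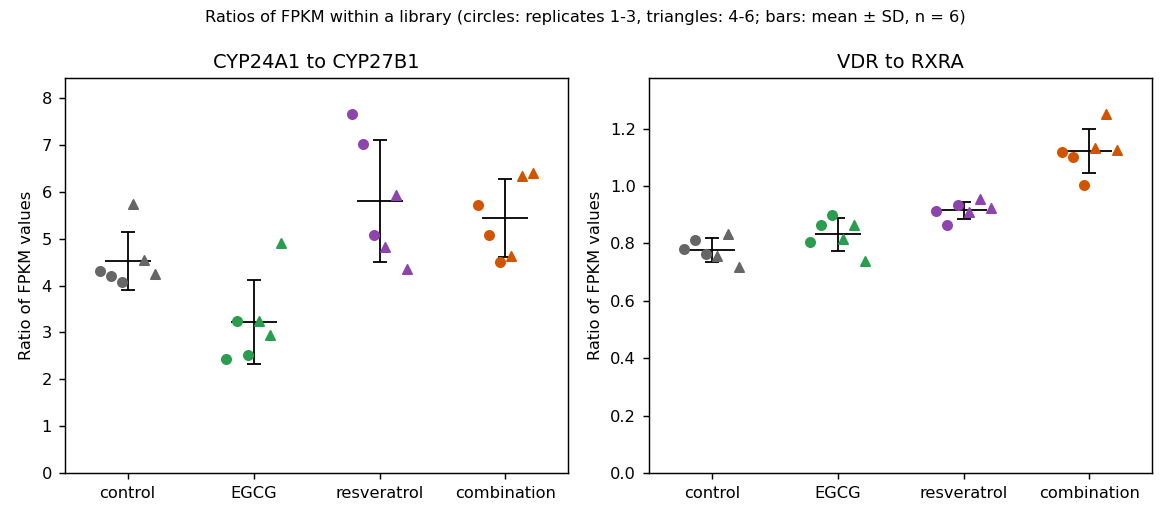
Ratio of FPKM values of CYP24A1 to CYP27B1 and of VDR to RXRA in each library, by group, with circles for replicates 1 to 3, triangles for replicates 4 to 6 and bars for the mean ± SD (n = 6). The ratio of VDR to RXRA is above 1.00 in the combination libraries alone. The ratio of CYP24A1 to CYP27B1 overlaps between all groups, for EGCG through replicate 6 alone.

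In edgeR's quasi-likelihood test over all 15476 tested genes, the call required p under 0.05 and, after Benjamini-Hochberg adjustment, under 0.1. All 4 genes passed the filter on low counts. EGCG against control called 1 of them (CYP24A1), where 1.76% of all tested genes were called. Resveratrol against control called 4 of 4 beside 56.9% of all genes, and the combination called 2 of 4 (VDR and RXRA) beside 59.8%. The combination against resveratrol called 3 of 4 beside 7.86%, the combination against EGCG 4 of 4 beside 57.8%, and the interaction 1 (CYP24A1) beside 0.265%. By direction, the called member of EGCG against control was lower, beside 0.859% of all genes called lower and 0.905% higher. Resveratrol called VDR higher and the other 3 genes lower, beside 28.9% higher and 28% lower. The combination called VDR higher and RXRA lower, beside 29.9% in either direction. Against resveratrol it called CYP24A1 and VDR higher and RXRA lower, beside 4.01% and 3.86%. Against EGCG it called the same pair higher and CYP27B1 and RXRA lower, beside 28.7% and 29.1%. For the interaction CYP24A1 was higher, beside 0.207% higher and 0.0582% lower. Groups of 6 libraries that did not overlap were found for 1.58% of all tested genes with EGCG, 31% with resveratrol, 31.9% with the combination, 3.2% between the combination and resveratrol and 27.5% between the combination and EGCG. Since the 4 genes were picked with these results known, nothing is read from their counts. Leaving out resveratrol replicate 3 or control replicate 5 ended the call of CYP24A1 with resveratrol (log2 fold change -0.12 in either case), and leaving out combination replicate 5 ended that of RXRA between the combination and resveratrol (-0.12). With the smaller number of libraries in replicates 1 to 3 alone, EGCG, the interaction and the combination set against resveratrol called 0 of the 4 genes, and resveratrol called CYP27B1 and RXRA. The combination against control still called VDR and RXRA, and against EGCG it called all 4 genes. In replicates 4 to 6 alone EGCG and the interaction called CYP24A1, and resveratrol called all but CYP27B1. The combination called VDR and RXRA against control, CYP24A1 and VDR against resveratrol, and all but CYP27B1 against EGCG. Scaling by library size alone called 2 of the 4 genes after resveratrol (VDR and CYP27B1) and 3 after both agents (CYP24A1, VDR and RXRA). The shares of all tested genes given above belong to the main fit. Those of the fits with fewer libraries or another scaling are not given here, so nothing is read from these counts either.

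**Figure D3:**
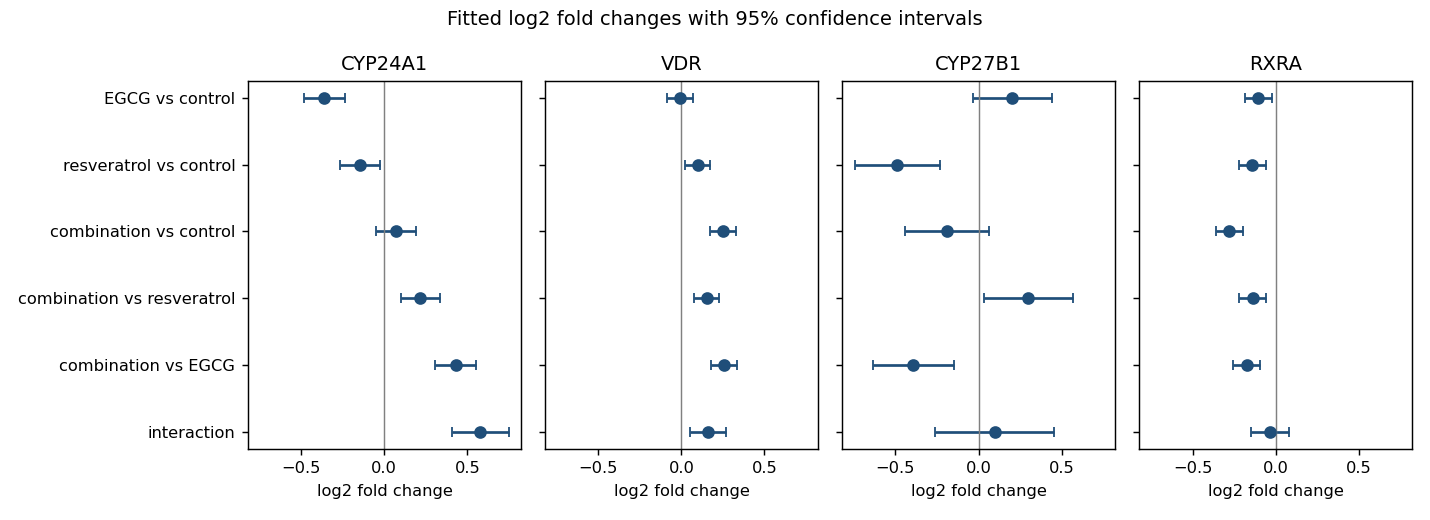
Fitted log2 fold changes of the 4 genes (points) with 95% confidence intervals (bars) in 5 comparisons of groups and for the interaction of EGCG and resveratrol. The interval of CYP24A1 lies below 0 with EGCG and above 0 for the interaction, that of VDR spans 0 with EGCG, and those of CYP27B1 are the widest.

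The rest of the pathway was followed in 64 other genes, of which 43 passed the filter. Among them the shares called were 3 of 43 for EGCG, 33 of 43 for resveratrol and 28 of 43 for both, or 6.98%, 76.7% and 65.1%, beside 1.76%, 56.9% and 59.8% of all tested genes. Resveratrol went with 19 higher and 14 lower genes and the combination with 15 higher and 13 lower. With scaling by library size alone these became 22 higher and 9 lower, and 23 higher and 8 lower. That scaling also moved the median log2 fold change of all tested genes up, to 0.09 with resveratrol and 0.08 with the combination. The shift toward higher genes was thus not particular to the pathway. In the main fit the medians of the 43 log2 fold changes were -0.01 for EGCG and 0.06 for either other treatment, where those of all tested genes were 0.00, 0.00 and 0.00. For the interaction 0 of 43 were called by edgeR and 0 by DESeq2. An unadjusted edgeR p under 0.05 was found for 8 of the 43, a larger share than the 1195 of all 15476 tested genes. This difference in shares was not tested.

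Of the 26 genes listed as known VDR targets, 16 passed the filter. The 10 others, among them TRPV6, an epithelial calcium channel, and CAMP, which encodes an antimicrobial peptide, had mean normalized counts of at most 1.09 in any group. Of the 16 genes, 7 rose and 6 fell with resveratrol, and the same numbers applied with the combination, or 81.2% called beside 56.9% and 59.8% of all tested genes. Those that rose include SPP1, which passed the filter only through libraries with resveratrol. The median log2 fold changes of the 16 were -0.01 for EGCG, 0.05 for resveratrol and 0.11 for both. CYP24A1, itself such a target, is not counted here.

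Among the targets that rose, CDKN1A, the gene of the cell cycle inhibitor p21, had 697 ± 31.8 (SD, n = 6) normalized counts for control cells, 1498 ± 43.5 after resveratrol and 1780.0 ± 110.4 after both. Its log2 fold change was 1.11 with resveratrol (SE 0.0418, edgeR adjusted p = 3.7e-22) and 1.36 with the combination (SE 0.0417, edgeR adjusted p = 4.3e-25). HBEGF, a ligand of the EGF receptor, rose from 175 ± 17.8 to 329 ± 21.1 and 452 ± 44.6, by 0.91 and 1.37 (edgeR adjusted p = 2.6e-12 and 1.2e-17). NINJ1, needed for membrane rupture in dying cells, rose by 1.16 and 1.21 (edgeR adjusted p = 2.9e-12 and 7.9e-13). SPP1, which encodes the secreted protein osteopontin, had log2 fold changes of 2.25 and 2.79 from low levels. It had 1 to 5 raw counts in the control libraries, 8 to 18 with resveratrol and 13 to 23 with the combination. SPP1 passed the filter only through libraries with resveratrol, so a rise was a condition of its testing, and no p is given. For CDKN1A, HBEGF and NINJ1, all 6 libraries of either treatment lay above all 6 control libraries. SERPINB1, a protease inhibitor, rose by 0.58 and 0.50 (edgeR adjusted p = 2.8e-10 and 8.9e-09), and DUSP10, a phosphatase of stress kinases, by 0.50 and 0.57 (edgeR adjusted p = 0.000567 and 0.000101).

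Among the targets that fell, THBD, the anticoagulant receptor thrombomodulin, had 248 ± 16.9 normalized counts for control cells, 199.6 ± 18.1 after EGCG, 137 ± 13.8 after resveratrol and 131 ± 15.2 after both. Its log2 fold changes were -0.31, -0.85 and -0.91 (edgeR adjusted p = 0.0122, 3.9e-12 and 8.9e-13). SLC37A2, a sugar phosphate transporter gene, fell by 0.78 and 0.96 on the log2 scale with resveratrol and the combination (edgeR adjusted p = 1.7e-09 and 3.4e-11). KLK6, a secreted protease gene, fell by 0.61 and 0.65 (edgeR adjusted p = 0.0309 and 0.0243), calls that were lost without control replicate 5, where the values were -0.43 and -0.47. CALB1, a calcium-binding protein gene, fell by 0.56 and 0.74 with these treatments (edgeR adjusted p = 0.00737 and 0.000774). PTHLH, the gene of parathyroid hormone-related protein, fell with each of the 3 treatments, by 0.12, 0.19 and 0.17 in the same order (edgeR adjusted p = 0.0239, 1.3e-06 and 4.2e-06). The EGCG libraries of PTHLH all lay below the control libraries, as those of CYP24A1 did, but by a very narrow margin (highest 4452.6 against lowest 4454.1). Those of THBD overlapped the control slightly, with a highest value of 223.3 against a lowest of 218.7.

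Between the combination and resveratrol, 4 of the 16 targets were called and each was higher with the combination, as were VDR and CYP24A1. HBEGF differed by 0.46, CDKN1A by 0.25, IGFBP3 by 0.20 and ATP2B1 by 0.13 (edgeR adjusted p = 1.9e-05, 5.8e-05, 0.000200 and 0.0649). IGFBP3, which binds insulin-like growth factors, was lower with resveratrol than in the control, by -0.53 (edgeR adjusted p = 7.1e-16), and ATP2B1 is a calcium pump. The call of ATP2B1 was lost when any of 6 libraries was left out: resveratrol replicates 2, 3 and 5, and combination replicates 1, 5 and 6. Over all 43 pathway genes this comparison called 7 higher and 0 lower, or 16.3%, beside 7.86% of all tested genes.

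**Figure D4:**
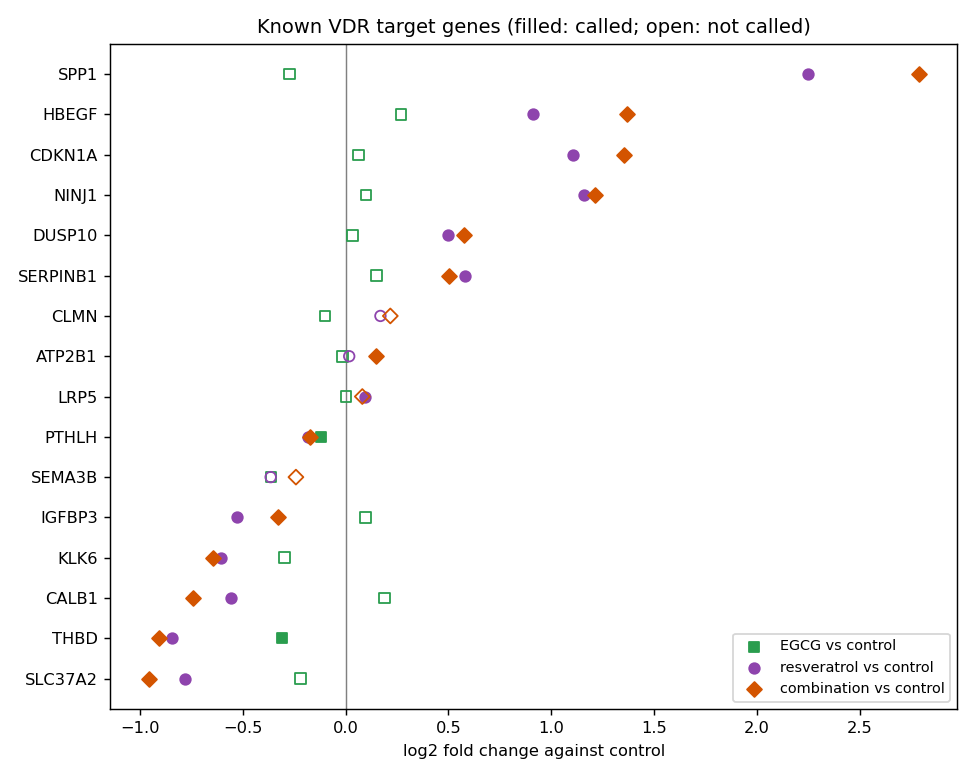
Log2 fold changes against control of the 16 tested VDR target genes with EGCG (squares), resveratrol (circles) and the combination (diamonds), with filled symbols for genes called by edgeR. SPP1, HBEGF, CDKN1A and NINJ1 lie on the right and SLC37A2 and THBD on the left, and filled squares mark THBD and PTHLH alone.

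Most of the other receptors tested rose with resveratrol and with the combination, while RARA fell as RXRA did. RXRB, another retinoid X receptor, had a mean FPKM of 7.59 ± 0.422 in the control and rose by 0.12 with resveratrol and 0.19 with the combination (edgeR adjusted p = 0.0471 and 0.0030), in the direction opposite to RXRA, with ranges that overlapped the control. The rise with resveratrol was not called when control replicate 1, 3 or 4 or resveratrol replicate 5 was left out. The remaining gene of this family, RXRG, had at most 2 raw counts in a library. Of 10 tested receptors in the list, which pair with RXR or belong to its family, 7 rose and 1 fell with resveratrol, and 6 rose and 2 fell with the combination. The share called was 80% in both cases, beside 56.9% and 59.8% of all tested genes. PPARD, a receptor for fatty acids, rose by 0.35 and 0.60 (edgeR adjusted p = 2.3e-08 and 4.0e-14), PPARA by 0.55 and 0.51 (6.8e-08 and 3.4e-07) and the thyroid hormone receptor gene THRB by 0.51 and 0.60 (1.3e-06 and 6.4e-08). NR1H3, an oxysterol receptor gene, rose by 0.68 and 0.71 (edgeR adjusted p = 0.000843 and 0.000506). RARA, a retinoic acid receptor gene, fell by 0.25 and 0.32 (edgeR adjusted p = 0.000189 and 6.9e-06), as RXRA was lower. RARG, another such gene, fell with EGCG by 0.17 (edgeR adjusted p = 0.0958), a call that was lost when any of 8 of the 12 libraries was left out: control replicates 1, 2, 5 and 6 and EGCG replicates 2 to 5.

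All 12 coregulators through which VDR acts were tested. With resveratrol 3 rose and 6 fell (75%, beside 56.9% of all tested genes), and with the combination 1 rose and 5 fell (50%, beside 59.8%). NCOA3, a coactivator, rose by 0.28 and 0.25 (edgeR adjusted p = 1.9e-07 and 9.4e-07), and its libraries lay above all control libraries with both treatments. NCOA2, another coactivator, fell by 0.18 and 0.23 (edgeR adjusted p = 0.0454 and 0.0129) with overlapping libraries. The call with resveratrol was lost without control replicate 5 or 6 or resveratrol replicate 1. Genes on the opposite strand overlap many of the genes examined, among them NCOA3, RXRB, NR1H3, SNW1, DHCR7, PTHLH and VDR. Those over VDR had mean raw counts of 0 and 11.4, and SLIRP over SNW1 had 902.6. The strand setting of the counting is not given in the sources used here.

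Of 11 genes that supply or clear vitamin D or serve its P450 enzymes, 5 passed the filter. With resveratrol 2 rose and 1 fell (60%, beside 56.9% of all tested genes), and with the combination 1 rose (20%, beside 59.8%). The gene that fell was PDIA3 (-0.08, edgeR adjusted p = 0.00990), and its direction turned with scaling by library size alone (0.0094). FDXR rose by 0.11 (edgeR adjusted p = 0.0700), and its call was lost without control replicate 1, 3 or 4 or resveratrol replicate 4. CYP2R1, an enzyme that makes calcidiol from vitamin D, had 42.6 ± 8.67 normalized counts in the control and a log2 fold change of 0.15 with resveratrol (95% CI -0.14 to 0.44) and 0.08 with the combination (95% CI -0.22 to 0.38). CYP27A1, which carries out the same step in mitochondria, had at most 2 raw counts in a library, CYP11A1 at most 1, and CYP3A4 0. The electron carrier FDX1, which mitochondrial P450 enzymes use, was not called in any comparison, with log2 fold changes of -0.11 for EGCG, -0.07 for resveratrol and -0.11 for both. DHCR7, which turns the skin precursor of vitamin D into cholesterol, rose by 0.39 with resveratrol and 0.51 with the combination (edgeR adjusted p = 8.9e-13 and 4.9e-16) and was 0.12 higher with the combination than with resveratrol (edgeR adjusted p = 0.0214).

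The genes nearest to CYP24A1 and VDR were found by the root mean square difference over their log2 fold changes with the 3 treatments. Nearest to CYP24A1 were a gene without a symbol (ENSG00000230715), the pseudogene MAP2K1P1, GTF2H4, IFNAR2 and LINC02901, with differences of 0.03 to 0.06. These genes had few reads, with 4 to 27 raw counts per library, and the SE of their fold changes against control lay between 0.21 and 0.29, so their order of nearness is uncertain. GTF2H4, a subunit gene of a general transcription factor, had log2 fold changes of -0.29, -0.17 and 0.13 for the treatments in this order (EGCG, resveratrol, both). IFNAR2, a subunit of the interferon receptor, had -0.35, -0.07 and 0.01. Nearest to VDR were SLC12A4, ZDHHC12, ENSG00000130723, JOSD1 and CLK1, with differences of 0.00 to 0.01. SLC12A4, a potassium and chloride cotransporter, had 0.00, 0.10 and 0.25. These genes are given as a description over 4 groups that share the control libraries.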

How the data were processed

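RNA-seq of 24 libraries of MDA686TU cells was used, in 4 groups of 6 by their titles. The authors made stranded mRNA libraries, trimmed paired reads with Trimmomatic 0.36 and aligned them to GRCh38 with HISAT2 2.0.4. The counting program, annotation release and strand setting are not given in the sources used here. The authors deposited raw counts per gene, a normalized signal (counts divided by 1 size factor per library) and FPKM values. edgeR 4.0.16, run in R 4.3.3, was applied to the raw counts (filterByExpr, TMM, quasi-likelihood test, 1 model over all libraries). The call took both thresholds of the study's methods, p under 0.05 and under 0.1 after Benjamini-Hochberg adjustment. Standard errors came from the fold change and the F statistic. Levels are the authors' normalized counts, and FPKM was used between genes. Library totals ran from 7034872 to 11735574 counts. Replicates of a group differed by more than sampling noise (chi-square per gene at least 1.23 in 60 pairs). The members and lists were chosen with earlier results of these data known.

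Named were the 4 members, for each list and comparison the called genes with the largest changes (up to 5 in each direction) and genes below the filter, the 5 genes nearest to CYP24A1 and to VDR, and RXRB, RXRG, CYP2R1 and CYP27A1. COL1A1, METTL1 and FDX1 were added after their values were seen. Not every gene the rule names is reported here. Alternatives were DESeq2 1.42.0, other scalings and filters, other thresholds, fewer groups or libraries and terms for replicates. In counts simulated for EGCG against control (15322 genes), edgeR called 97 of 100 genes changed by 1 on the log2 scale, 78 of 100 changed by 0.5, and 23 unchanged genes. Symbols and positions came from GENCODE 44.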

Additional observations from a re-analysis of the deposited data

Results flagged for a closer look

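For CYP24A1 the change with EGCG differed between cells without and with resveratrol, with an interaction of 0.58 on the log2 scale. The gene was chosen with this known, and no p is given. COL1A1 differed in the same way, by 0.46 (edgeR adjusted p = 0.000787). In 84 groups of 6 libraries from the genes whose levels were examined, 4 held a library far from the others in normalized counts, where chance marks about 1 group in 20. These were RXRB in combination replicate 2 (lowest, 262.6), NCOA3 in control replicate 6 (highest, 1089), and DHCR7 in control replicate 1 (highest, 5293) and resveratrol replicate 2 (lowest, 6181). None of the groups of CYP24A1, VDR, CYP27B1 or RXRA held such a library.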

How the results depend on the processing

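Over all alternatives, 587 of 596 recomputed fold changes of the 4 genes moved by less than 1 SD between replicates and 9 by more. For 336 of the 587, 1 library was left out, which can hardly move a mean of 6 libraries that far. The 9 were 5 of 24 with scaling by library size alone and 2 of 24 from each set of replicates alone. A fold change that moved by less than 1 SD could still lose its call. With scaling by library size alone, VDR was at 0.19 with resveratrol, 0.33 with the combination and 0.33 for the combination against EGCG, and RXRA was at -0.053 and -0.20 with resveratrol and the combination. This scaling moved the median of all genes by 0.09 with resveratrol and 0.08 with the combination. It also turned the direction of PDIA3 with resveratrol (0.0094) and of SNW1 with resveratrol and the combination (0.023 and 0.0030). From replicates 1 to 3 alone CYP27B1 was at -0.72 with resveratrol and 0.54 for the combination against resveratrol, and from replicates 4 to 6 alone at -0.26 and 0.057. The pathway genes called with EGCG numbered 0 from the first set and 1 from the other, and the latter gave 4 between the combination and resveratrol. The cause was not tested, though fewer libraries enter these fits.

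With the replicate number as a block, 2 pathway genes were called for the interaction, PTHLH (0.13, edgeR adjusted p = 0.0815) and CDKN1A (0.19, edgeR adjusted p = 0.0870). A term for replicates 1 to 3 against 4 to 6 also gave 2. Over all tested genes the interaction called 85 with the block and 79 with the term, where the main fit called 41 of 15476. More calls were thus made over all genes, and the 2 are not read as a result about the pathway. The replicate numbers were not taken to pair libraries, since 2 of 36 pairs, not all, had a correlation of deviations over 0.1. The best match among 6 libraries had the same number in 15 of the 36. Most best matches lay within the same set, replicates 1 to 3 or 4 to 6. A match by number therefore cannot be told apart from a match by set, and the labels name neither. The block left the other counts of calls within 1.5 times. A fit of only the groups compared cannot give the interaction. Leaving out each library in turn gave 2 to 4 pathway genes with EGCG, 28 to 32 with resveratrol and 27 to 30 with the combination. It kept CYP24A1 between -0.40 and -0.34 with EGCG and between 0.54 and 0.61 for the interaction. CYP27B1 had 33 to 94 raw counts per library and the widest intervals of the 4 genes.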
